A study of Mus musculus with 12 samples.

Results

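Keratin-associated proteins (KAPs) are small proteins encoded by the Krtap genes, and 57 of the 36400 genes in the dorsal skin table carry a symbol that begins with Krtap and a number. By family number, 22 of the 57 were placed in the high-sulfur subfamily, 17 in the ultrahigh-sulfur subfamily and 16 in the glycine-tyrosine subfamily, and the 2 Krtap31 genes were left unclassified. The 12 libraries came from dorsal skin of female BALB/c mice that were 6 weeks old at the start, with 3 libraries per group. The sources used here do not say that each library is 1 mouse, so p-values measure the spread between libraries. The backs were clipped and treated with hair removal cream before sensitization and shaved again on day 24, and skin was taken on day 30. The control group, named Solvent in the labels, received acetone and olive oil without DNCB. The DNCB group was sensitized with 1% 2,4-dinitrochlorobenzene (DNCB), a contact sensitizer that produces an atopic dermatitis-like eruption, and challenged with 0.5% DNCB. The scMSC and scivMSC groups had the same DNCB exposure plus human umbilical cord mesenchymal stem cells (MSCs), given 4 times between days 13 and 25 at 2000000 cells each time. The scMSC group received 100 µL subcutaneously beside the lesion, whereas the scivMSC group received 50 µL there and 50 µL intravenously. No group received the injection fluid alone, so the cells and the injections cannot be told apart.

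KAPs form the matrix of the hair shaft. They fill the space between the keratin filaments of the cortex and cuticle and are linked to the hair keratins by disulfide bonds, and they are made late in shaft differentiation, in follicles that are growing a hair. High-sulfur and ultrahigh-sulfur KAPs are rich in cysteine, whereas glycine-tyrosine KAPs are rich in glycine and tyrosine. In whole skin, fewer cells of a type and less RNA per cell cannot be told apart.

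The genes lie in clusters of short genes, and 52 of the 57 are annotated with 1 exon in every transcript. In GRCm38, chromosome 11 holds 23 members (the Krtap1, Krtap2, Krtap3, Krtap4, Krtap9, Krtap17, Krtap29 and Krtap31 genes and Krtap16-1), chromosome 16 holds 24 (all 16 glycine-tyrosine and 8 high-sulfur genes), chromosome 7 the 5 Krtap5 genes, chromosome 10 the Krtap10 and Krtap12 genes and chromosome 1 the Krtap28 genes. RefSeq gave a promoter in GRCm38.p6 for 50 of the 57. The 6 letters TATAAA, the core of the TATA box, were searched on the strand of the gene in the 250 bases before the start and were found in 40 of the 50 promoters (80.0%), against 7.55% of 32544 distinct RefSeq promoters. In 31 of the 50 (62.0%) the letters began 40 to 20 bases before the start, against 1.985% of all promoters. These were 11 of 18 high-sulfur, 12 of 16 ultrahigh-sulfur and 6 of 14 glycine-tyrosine promoters and those of both Krtap31 genes. The 120 bases before the start are shown for abundant members of each subfamily and for Krtap3-2, which differed from the other members in control skin, with TATAAA in capitals. The Krtap15 promoter is shown as one without these exact letters, although it holds the similar tatataag, which was not searched. Its RefSeq start lies inside the annotated span of the gene, chr16:88820215-88829844.
Krtap8-1 (chr16:89487953-89488072, minus strand): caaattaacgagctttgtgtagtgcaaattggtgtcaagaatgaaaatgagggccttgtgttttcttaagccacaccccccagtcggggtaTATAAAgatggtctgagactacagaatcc
Krtap15 (chr16:88828889-88829008, plus strand): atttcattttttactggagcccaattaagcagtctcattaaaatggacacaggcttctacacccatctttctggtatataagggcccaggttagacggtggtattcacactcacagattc
Krtap11-1 (chr16:89571184-89571303, minus strand): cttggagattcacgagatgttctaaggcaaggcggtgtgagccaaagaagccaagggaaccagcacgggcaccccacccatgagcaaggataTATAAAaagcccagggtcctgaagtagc
Krtap9-3 (chr11:99598107-99598226, minus strand): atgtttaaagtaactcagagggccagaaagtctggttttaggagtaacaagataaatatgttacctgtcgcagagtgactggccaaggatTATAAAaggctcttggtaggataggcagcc
Krtap4-1 (chr11:99628240-99628359, minus strand): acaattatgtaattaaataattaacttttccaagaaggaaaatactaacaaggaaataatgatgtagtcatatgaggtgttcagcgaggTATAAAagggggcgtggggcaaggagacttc
Krtap3-2 (chr11:99556854-99556973, minus strand): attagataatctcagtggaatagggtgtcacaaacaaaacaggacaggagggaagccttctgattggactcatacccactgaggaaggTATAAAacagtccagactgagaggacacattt

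Letters of factors known in the hair shaft were searched in the same windows on both strands. The letters TTTATN followed by any pair of A and G, of the kind bound by HOXC13, were found in 16 of 50 promoters (32.0%), against 11.2% of all promoters, and 14 (28%, against 9.34%) had such a match that did not overlap TATAAA. The LEF1 letters CTTTG followed by any pair of A and T were in 16 (32.0%, against 14.9%), namely 9 high-sulfur, 3 ultrahigh-sulfur, 3 glycine-tyrosine and 1 unclassified. The short FOXN1 core ACGC was in 11 (22%, against 50.0%). These matches describe the windows and are not binding sites.

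The library totals ran from 63877153 to 75134001 estimated counts. About 4 estimated counts were taken as 1 sequenced fragment, a ratio not given in the study text or the sample labels. A member is called at the floor of a group where none of its libraries exceeds 12 estimated counts, that is 3 fragments at this ratio. This floor covers counting error only. Levels are in FPKM, fragments scaled for transcript length and library size, which allows levels of different genes to be compared. Values of 3 libraries are given in the order of replicates 1, 2 and 3 of the labels. The epidermal keratin and loricrin list summed to 4966 to 19352 FPKM in the 12 libraries, so epidermis was present in each.

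KAP RNA was close to absent in control skin, low in DNCB skin and abundant in both MSC groups. The 57 genes summed to 16.6, 48.9 and 10.6 FPKM in the control libraries and 137, 42.1 and 310.0 in the DNCB libraries. In the MSC groups the sums were 7370.2, 26756 and 7513 for scMSC and 5905, 1951 and 3312 for scivMSC. Every MSC library was above every DNCB library, while DNCB replicate 2 was below control replicate 2. The group means were 25.4 ± 20.6, 163 ± 136, 13880.0 ± 11152 and 3722 ± 2009 FPKM (SD, n = 3 each). The scMSC mean was 85.1-fold and the scivMSC mean 22.8-fold the DNCB mean, and the DNCB mean was 6.43-fold the control mean. Single libraries moved these folds. For scMSC the fold was 45.6 without scMSC replicate 2 and 155 without DNCB replicate 3. For scivMSC it was 16.1 without scivMSC replicate 1, 16.6 without DNCB replicate 2 and 41.5 without DNCB replicate 3. For DNCB against control it was 3.53 without DNCB replicate 3 and 11.99 without control replicate 2. In scMSC replicate 2, KAP genes held 6.96% of all FPKM and 2.09% of the estimated counts, against 0.00107% to 0.00428% of the counts in the control libraries. At least 54 members reached 1 FPKM in each MSC library, compared with 34, 12 and 41 in the DNCB libraries and 4, 12 and 2 in the control libraries. In the control group 17 members were at the floor and 9 had no count at all, and in the DNCB group 5 were at the floor. No member was at the floor in either MSC group.

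**Figure D1:**
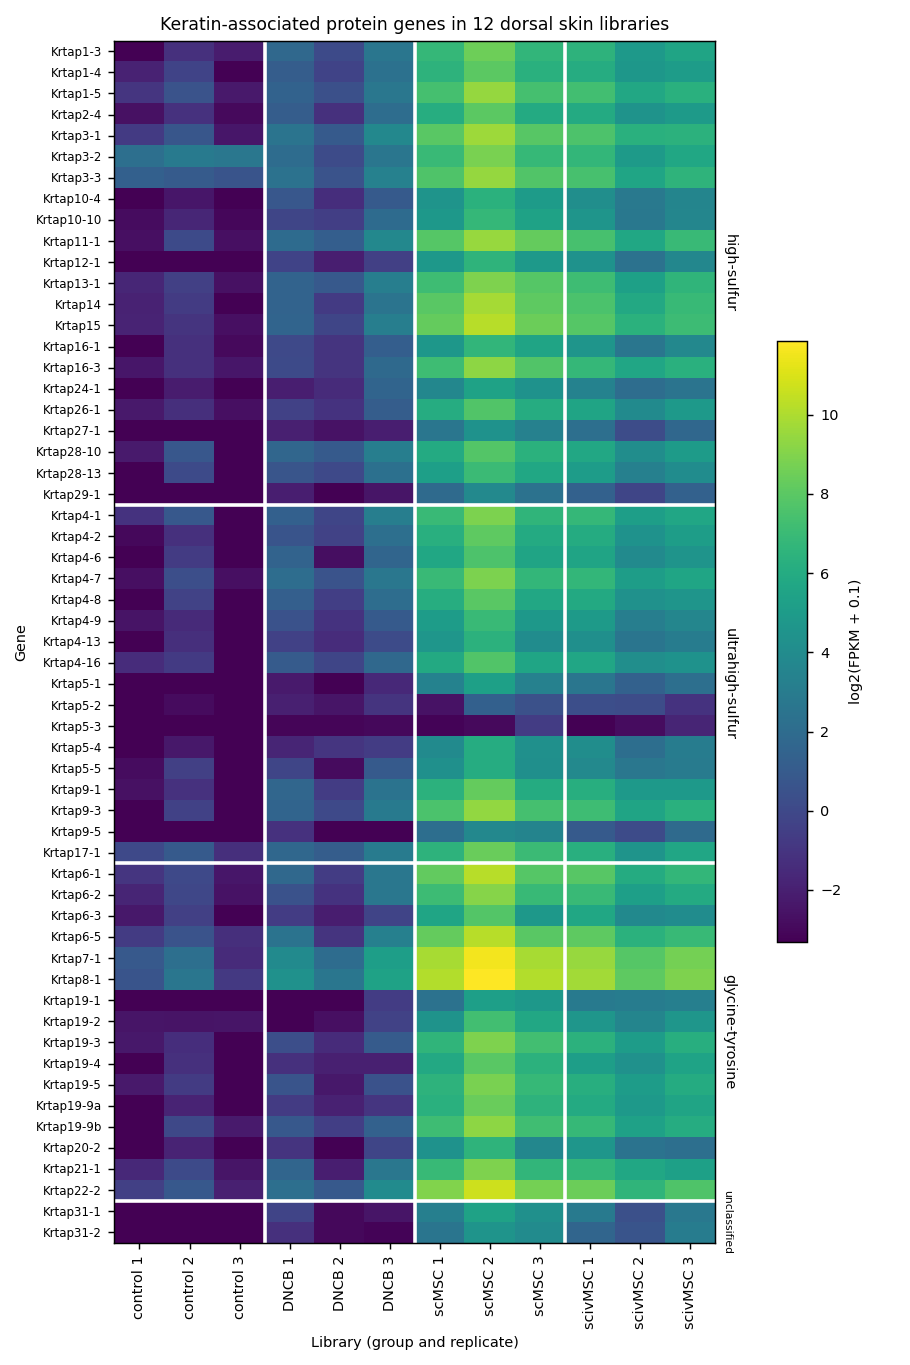
Level of each of the 57 KAP genes (rows, by subfamily) in each of the 12 libraries (columns, by group and replicate), coloured by log2(FPKM + 0.1). The 6 MSC libraries are high in nearly every row, scMSC replicate 2 most of all, and Krtap3-2 and Krtap3-3 are the rows at or above 1 FPKM in all 3 control libraries.

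The members moved together from library to library within a group. Of the 57 genes, 56 were highest in scMSC replicate 2 among the scMSC libraries, 50 in replicate 1 among the scivMSC libraries and 48 in replicate 3 among the DNCB libraries. Of the 48 members with any count in control skin, 46 were highest in control replicate 2. The lowest library was replicate 2 for 51 members in the DNCB group and for 52 in the scivMSC group.

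The makeup of the KAP signal was nearly the same in all 6 MSC libraries although its total varied from 1951 to 26757 FPKM. Glycine-tyrosine genes held 51.4% to 54.3% of the summed KAP FPKM, high-sulfur genes 32.0% to 36.3% and ultrahigh-sulfur genes 11.8% to 14%. In the DNCB libraries the glycine-tyrosine share was lower, at 43.6, 35.2 and 43.0%, and the ultrahigh-sulfur share higher, at 20.4, 21.7 and 18.3%. Neither range overlapped that of the MSC libraries. The high-sulfur share was 35.2, 43.1 and 38.6% in DNCB and 55.2, 41.1 and 81.1% in control libraries, where the sums are small. The Krtap3 family alone gave 7.56, 10.8 and 7.98 FPKM of the control sums. The differences in share between groups were not tested.

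**Figure D2:**
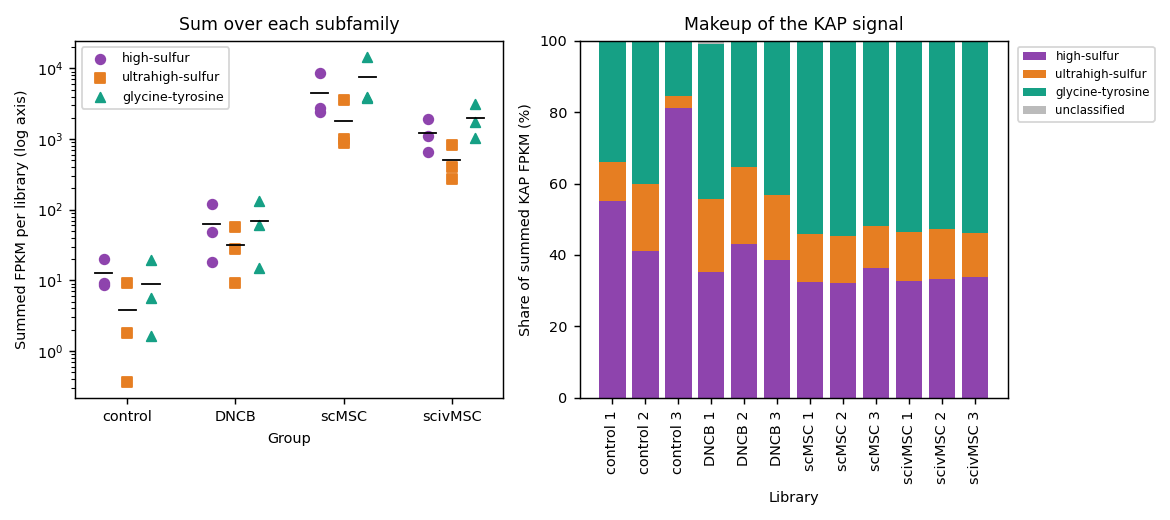
Left, FPKM summed over each subfamily for each library by group on a log axis, with points for libraries and a black line for the mean of 3. Right, the percentage of the summed KAP FPKM held by each subfamily in each library, where glycine-tyrosine genes hold over 51% in every MSC library and at most 43.6% in the control and DNCB libraries.

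The glycine-tyrosine subfamily held the most abundant KAP genes. Krtap8-1 (ENSMUSG00000059632, chr16:89487379-89487952, minus strand) was at 1.46, 6.24 and 0.464 FPKM in the control libraries and 20.5, 6.07 and 43.1 in the DNCB libraries, and rose to 1099.7, 3707 and 1109 in scMSC and 848, 268 and 483 in scivMSC. The MSC libraries were all above the DNCB libraries, and control replicate 2 was above DNCB replicate 2. Its log2 fold change was 6.47 ± 1.13 (adjusted p = 0.00501) for scMSC against DNCB (± SE) and 4.53 ± 1.04 (adjusted p = 0.0251) for scivMSC against DNCB, by edgeR's quasi-likelihood test with Benjamini-Hochberg adjustment over all genes tested, as for every adjusted p given here. For DNCB against control it was 2.86 ± 0.98 (adjusted p = 0.0546), which was not called, although without control replicate 2 or DNCB replicate 2 the adjusted p was 0.0209 to 0.041. For scivMSC against DNCB, without DNCB replicate 1, DNCB replicate 2, scivMSC replicate 1 or scivMSC replicate 3 the adjusted p was 0.0543 to 0.096. A gene was called when the adjusted p was under 0.05 and the log2 fold change over 1 in size.

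Krtap7-1 (ENSMUSG00000056706, chr16:89507703-89508323, minus strand) had nearly the same levels. They were 1.80, 4.54 and 0.260 FPKM in control, 15.5, 4.10 and 36.3 in DNCB, 944, 3121 and 939 in scMSC and 719, 228 and 405 in scivMSC. As for Krtap8-1, control replicate 2 was above DNCB replicate 2 and no MSC library overlapped a DNCB library. Krtap22-2 (chr16:89010395-89010759, minus strand) followed at 0.634, 1.74 and 0.148 in control, 4.48, 1.75 and 15.9 in DNCB, 502, 1666 and 409.5 in scMSC and 353, 97.7 and 204 in scivMSC. Control replicate 2 and DNCB replicate 2 were level, and the lowest MSC library was far above the highest DNCB library. The scMSC against DNCB log2 fold change was 6.55 ± 1.15 (adjusted p = 0.00505) for Krtap7-1 and 6.93 ± 1.09 (adjusted p = 0.00337) for Krtap22-2.

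Krtap6-5 and Krtap6-1, also on chromosome 16, followed within the glycine-tyrosine subfamily. Krtap6-5 (chr16:89047289-89047883, minus strand) was at 0.515, 1.36 and 0.316 FPKM in control, 5.41, 0.385 and 9.82 in DNCB, 312, 1185 and 248 in scMSC and 270.1, 82.8 and 118 in scivMSC. DNCB replicate 2 lay within the control range, and no MSC library overlapped a DNCB library. Krtap6-1 (chr16:89031699-89032292, plus strand) was at 0.397, 0.904 and 0.0907 in control, 3.41, 0.538 and 6.33 in DNCB, 299.9, 1178 and 227 in scMSC and 246, 65.2 and 107 in scivMSC, with the same overlap. The scivMSC against DNCB log2 fold change was 4.92 ± 1.08 (adjusted p = 0.0217) for Krtap6-5 and 5.35 ± 1.05 (adjusted p = 0.0143) for Krtap6-1. For Krtap6-5 without DNCB replicate 1 or scivMSC replicate 1 the adjusted p was 0.068 to 0.083, and for Krtap6-1 without DNCB replicate 1 the adjusted p was 0.0629.

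Krtap19-4 (chr16:88884786-88885089, minus strand) was among the members with the least signal in DNCB skin relative to MSC skin. It was at 0, 0.334 and 0 FPKM in control and 0.332, 0.148 and 0.149 in DNCB, at the floor in both, against 57.2, 252 and 87.3 in scMSC and 36.6, 20.3 and 44.4 in scivMSC. With the DNCB group at the floor, its level was at least 279-fold higher in scMSC (adjusted p = 0.00145) and at least 69.2-fold higher in scivMSC (adjusted p = 0.00408), bounds that take 3 fragments per library for DNCB. Krtap19-9a (chr16:88924054-88924219, minus strand), annotated as a processed pseudogene, was also at the floor in both, at 0, 0.181 and 0 in control and 0.516, 0.165 and 0.403 in DNCB, and reached 80.0, 328 and 88.9 in scMSC and 63.0, 28.3 and 46.9 in scivMSC. It was at least 191-fold higher in scMSC (adjusted p = 0.00123) and at least 51.2-fold higher in scivMSC (adjusted p = 0.00339) than in DNCB.

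Among high-sulfur genes, Krtap15 (chr16:88820215-88829844, plus strand) and Krtap14 (chr16:88818667-88826145, minus strand) were the most abundant. They overlap on opposite strands, and the sources used here do not say that counting used strand, so their values may share reads. Krtap15 was at 0.188, 0.387 and 0.0512 FPKM in control, 2.89, 0.811 and 8.90 in DNCB, 310.1, 1220.2 and 344 in scMSC and 235, 82.6 and 137 in scivMSC. No control library reached a DNCB library, and no DNCB library an MSC library. The log2 fold change of Krtap15 was 4.06 ± 1.02 (adjusted p = 0.0148) for DNCB against control, 7.29 ± 1.07 (adjusted p = 0.00259) for scMSC against DNCB and 5.19 ± 0.97 (adjusted p = 0.012) for scivMSC against DNCB. In the first of these without control replicate 1, control replicate 3 or DNCB replicate 3 the adjusted p was 0.0525 to 0.0576, and in the last without DNCB replicate 1 the adjusted p was 0.0579. Krtap14 was at 0.177, 0.515 and 0 in control, 2.81, 0.508 and 5.73 in DNCB, 256, 898 and 269 in scMSC and 189, 57.2 and 119 in scivMSC, with control replicate 2 just above DNCB replicate 2. Its DNCB against control log2 fold change was 3.43 ± 1.09 (adjusted p = 0.0413), and without control replicate 1, control replicate 3, DNCB replicate 1 or DNCB replicate 3 the adjusted p was 0.0753 to 0.143.

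Krtap11-1 (chr16:89570176-89571183, minus strand), a single-member family, was at 0.0517, 0.957 and 0.0535 FPKM in control, 3.89, 2.18 and 13.5 in DNCB, 233, 741 and 312 in scMSC and 175, 52.4 and 124 in scivMSC. No 2 of the 4 groups overlapped, in the order control, DNCB, scivMSC, scMSC. Krtap11-1 was called higher in DNCB than in control, at a log2 fold change of 3.96 ± 1.08 (adjusted p = 0.0207), but without control replicate 1, control replicate 3 or DNCB replicate 3 the adjusted p was 0.0633 to 0.0791. Krtap3-1 (chr11:99566027-99566630, minus strand) was at 0.502, 1.54 and 0.0892 in control, 5.71, 1.91 and 13.7 in DNCB, 249.7, 809 and 236 in scMSC and 195, 77.9 and 85.1 in scivMSC. All of its DNCB libraries were above its control libraries, with a log2 fold change of 3.08 ± 0.95 (adjusted p = 0.0364), but without control replicate 1, control replicate 3, DNCB replicate 1 or DNCB replicate 3 the adjusted p was 0.0623 to 0.138.

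The other Krtap3 genes stood apart in control skin. Krtap3-2 (chr11:99555823-99556853, minus strand) was chosen after its values were seen, as the member with a negative DNCB against control difference. It was at 4.65, 7.37 and 6.44 FPKM in control and 4.05, 1.02 and 6.06 in DNCB, and at 125, 441 and 114 in scMSC and 106, 30.6 and 53.5 in scivMSC. The control and DNCB libraries overlapped, the log2 fold change was -0.92 ± 0.70 (adjusted p = 0.376), and the gene was not called. Krtap3-3 (chr11:99550130-99550865, minus strand) was at 2.41, 1.92 and 1.45 in control, 5.20, 1.39 and 10.1 in DNCB, 206, 715 and 212 in scMSC and 174, 49.4 and 94.0 in scivMSC, and its DNCB against control log2 fold change was 1.32 ± 0.74 (adjusted p = 0.225). Of the 50-base words of the Krtap3-3 transcript, 41.3% are shared with Krtap3-2, and 28.9% of those of Krtap3-2 with Krtap3-3, so single-member values are uncertain.

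Krtap12-1 (chr10:77720599-77721254, plus strand) and Krtap27-1 (chr16:88671026-88671671, minus strand) had the largest fitted DNCB against control differences among the called members, and no count in any control library. Krtap12-1 was at 0.743, 0.140 and 0.637 FPKM in DNCB, at least 1.78-fold above the floor of 3 fragments per control library (adjusted p = 0.0162), and rose to 27.5, 92.3 and 29.3 in scMSC and 20.8, 5.25 and 12.8 in scivMSC. It lies within the gene Tspear on the same strand. Krtap27-1 was at 0.154, 0.0659 and 0.145 in DNCB, at the floor there as well, so although it passed the test (adjusted p = 0.0278) no fold is given, and without control replicate 1, control replicate 2, control replicate 3, DNCB replicate 1 or DNCB replicate 3 the adjusted p was 0.064 to 0.0697. Its levels of 6.02, 20.9 and 10.1 in scMSC and 4.54, 1.04 and 3.23 in scivMSC were at least 55.0-fold and 12.8-fold higher than the DNCB floor.

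Ultrahigh-sulfur genes were led by Krtap9-3 (chr11:99597347-99598105, minus strand). It was at 0, 0.669 and 0 FPKM in control, 2.88, 0.900 and 7.51 in DNCB, 192, 674 and 169 in scMSC and 139.7, 45.7 and 79.0 in scivMSC, and each DNCB library was above each control library. Its log2 fold change was 3.83 ± 1.22 (adjusted p = 0.0416) for DNCB against control and 6.59 ± 1.20 (adjusted p = 0.00593) for scMSC against DNCB. In the first of these without control replicate 1, control replicate 3, DNCB replicate 1 or DNCB replicate 3 the adjusted p was 0.068 to 0.145. Krtap9-1 (chr11:99873389-99874432, plus strand) was at 0.0617, 0.343 and 0 in control, 3.13, 0.552 and 5.46 in DNCB, 85.8, 310.2 and 64.7 in scMSC and 74.2, 28.3 and 29.8 in scivMSC. It too was higher in every DNCB library than in any control library, by a log2 fold change of 4.23 ± 1.15 (adjusted p = 0.0213), but without control replicate 1, control replicate 3 or DNCB replicate 3 the adjusted p was 0.064 to 0.083.

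The 8 Krtap4 genes form the largest family. Krtap4-1 (chr11:99627224-99628238, minus strand) was at 0.359, 1.73 and 0 FPKM in control, 2.46, 0.798 and 8.81 in DNCB, 127, 470.5 and 98.9 in scMSC and 112, 35.6 and 50.0 in scivMSC. Although no scivMSC library overlapped a DNCB library, its scivMSC against DNCB log2 fold change of 4.04 ± 1.20 (adjusted p = 0.0654) was not called. Krtap4-7 (chr11:99643106-99644089, minus strand) was at 0.0533, 1.13 and 0.0546 in control, 4.17, 1.38 and 6.26 in DNCB, 123, 471 and 108 in scMSC and 105, 35.4 and 48.8 in scivMSC, and the same comparison gave 4.01 ± 1.02 (adjusted p = 0.0366), but without DNCB replicate 1, DNCB replicate 2, DNCB replicate 3, scivMSC replicate 1 or scivMSC replicate 3 the adjusted p was 0.0698 to 0.126. Krtap17-1 (chr11:99993234-99993994, minus strand), alone in its family, was at 0.925, 1.87 and 0.314 in control, 3.27, 2.13 and 7.92 in DNCB, 89.3, 333 and 131 in scMSC and 75.5, 23.03 and 51.0 in scivMSC. Its DNCB libraries were above its control libraries, but the log2 fold change of 1.88 ± 0.77 (adjusted p = 0.0999) was not called.

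The 5 Krtap5 genes of chromosome 7, a family of the hair cuticle, were low. Their summed level was 0.0445, 0.770 and 0 FPKM in control, 1.27, 0.547 and 3.03 in DNCB, 45.4, 177 and 50.4 in scMSC and 38.4, 14.3 and 21.2 in scivMSC. Krtap5-3 had a mean under 0.1 FPKM over the 12 libraries and was the 1 member not tested. Krtap5-2 was the 1 tested member not called in scMSC against DNCB, at a log2 fold change of 2.61 ± 1.16 (adjusted p = 0.187). The unclassified Krtap31-1 (chr11:99907920-99908892, plus strand) had no count in control, was at 0.757, 0.0235 and 0.0838 in DNCB, and reached 9.35, 42.7 and 19.8 in scMSC and 7.69, 1.23 and 6.61 in scivMSC. Of the 50-base words of its transcript, 39.1% are shared with Krtap31-2.

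DNCB skin was compared with control skin to ask whether KAP genes differed between them without MSC treatment. Of the 57 members, 16 were called higher and 0 lower, where 6.59% of the 21890 genes tested were called higher and 7.57% lower. By subfamily these were 12 of 22 high-sulfur, 4 of 17 ultrahigh-sulfur and 0 of 16 glycine-tyrosine genes. The called high-sulfur genes were Krtap1-3, Krtap2-4, Krtap3-1, Krtap10-4, Krtap10-10, Krtap11-1, Krtap12-1, Krtap13-1, Krtap14, Krtap15, Krtap24-1 and Krtap27-1, and the ultrahigh-sulfur genes were Krtap4-2, Krtap4-9, Krtap9-1 and Krtap9-3. Every DNCB library was above every control library in 26 members, against 31.7% of the genes tested, and these included 14 high-sulfur, 9 ultrahigh-sulfur and 2 unclassified genes and 1 glycine-tyrosine gene. Krtap27-1, in both counts, was at the floor in both groups. It reached the mean of 0.1 FPKM needed for testing only through its MSC libraries. Krtap31-2, among the 26, had 24, 2 and 1 estimated counts in the DNCB libraries and 0 in each control library. The smallest adjusted p of a glycine-tyrosine gene was 0.0546, and the difference between subfamilies was not tested. Over the 56 tested members the median log2 fold change was 2.97, beside 0.02 over all genes. The 2.97 includes 4 members at the floor in both groups, whose fold has no support. Without these 4, and with the other floor genes at their bounds, the median was 2.64. The count rested on single libraries, at 3 without control replicate 1, 4 without control replicate 3, 3 without DNCB replicate 3 and 10 without DNCB replicate 1, and at 28 without DNCB replicate 2 and 26 without control replicate 2. Under other settings it ran from 6 to 35.

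With MSCs under the skin, 55 of the 57 members were called higher in scMSC than in DNCB, where 4.66% of all tested genes were. These were all 22 high-sulfur, 15 of 17 ultrahigh-sulfur, all 16 glycine-tyrosine and both unclassified genes. Every scMSC library was above every DNCB library in 55 members, against 16% of genes tested. The median log2 fold change was 6.42 over the 56 tested members, at 7.25 for glycine-tyrosine, 6.03 for high-sulfur and 5.86 for ultrahigh-sulfur genes, beside 0.02 over all genes. With floor genes at their bounds, the median over the tested members was 6.23.

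With MSCs by both routes, 45 of the 57 were called higher than in DNCB, where 3.13% of tested genes were. These were 18 of 22 high-sulfur, 10 of 17 ultrahigh-sulfur, all 16 glycine-tyrosine and 1 of 2 unclassified genes. In 55 members every scivMSC library was above every DNCB library (16.4% of genes tested), so most of those not called were still separated. The median log2 fold changes were 5.42 for glycine-tyrosine, 4.15 for high-sulfur and 3.95 for ultrahigh-sulfur genes. The members not called included both Krtap28 genes, Krtap10-10, Krtap24-1 and 3 of the 8 Krtap4 genes, with log2 fold changes of 2.62 to 4.04. The count fell to 13 without DNCB replicate 1, 16 without DNCB replicate 2, 17 without scivMSC replicate 1 and 23 without scivMSC replicate 3.

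**Figure D3:**
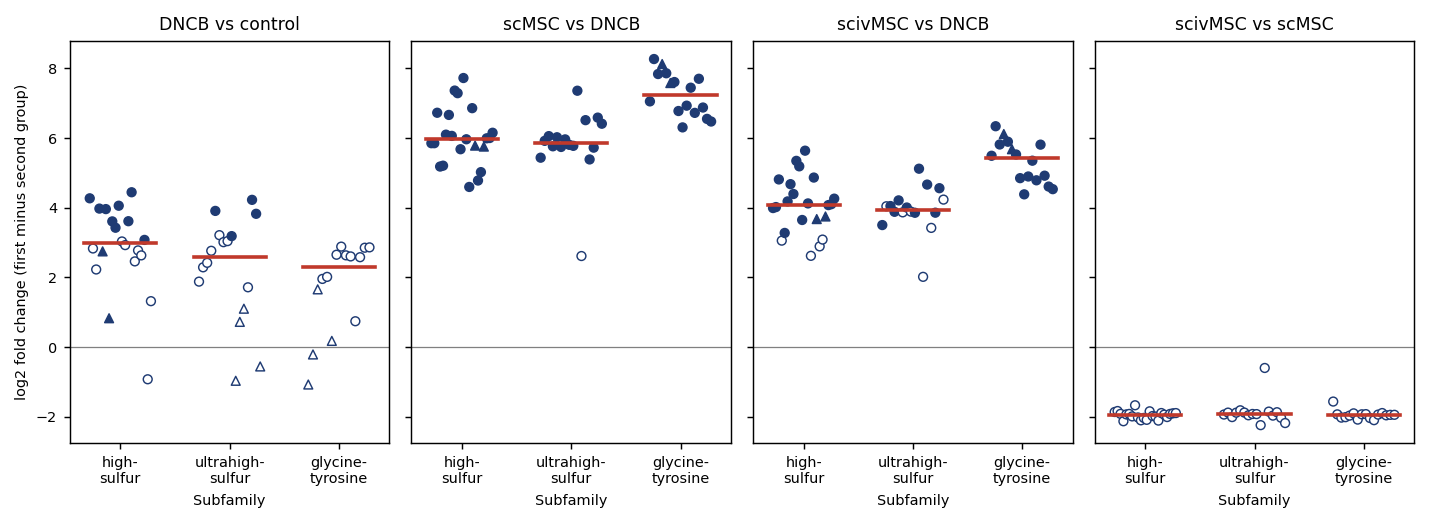
Log2 fold change of each tested KAP gene by subfamily in 4 comparisons, first group minus second, with filled symbols for called genes and red lines for the median of the plotted values. Triangles are lower bounds for genes whose second group is at the floor, and genes with both groups at the floor are left out. Points lie near 6 to 7 in scMSC vs DNCB and near -1.9 in scivMSC vs scMSC.

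Both MSC groups also stood far above the control group. Of the 57 members, 56 were called higher in scMSC than in control (5.12% of tested genes were) and 56 in scivMSC than in control (3.50%), in each case every tested member, and none of these members had overlapping libraries (25.9% and 24.3% of tested genes had every treated library above every control library). The median log2 fold change was 9.52, or 8.90 with floor genes at their bounds, for scMSC and 7.52, or 6.97 with bounds, for scivMSC. The MSC comparisons share their DNCB or control libraries.

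Between routes, all 56 tested members had a lower mean in scivMSC than in scMSC, with log2 fold changes of -2.24 to -0.60 and a median of -1.93, but 0 of 57 were called by edgeR, DESeq2 or limma. Of all tested genes 0.00457% were called. At an unadjusted p under 0.05 there were 30 members, where 7.50% of genes tested had such a p. Krtap8-1 differed by -1.94 ± 0.92 (adjusted p = 0.688) and Krtap15 by -2.10 ± 0.84 (adjusted p = 0.637). The mean KAP sum was 3.73-fold higher in scMSC, and 2.00-fold higher without scMSC replicate 2. The subfamily medians, -1.93, -1.92 and -1.94 for high-sulfur, ultrahigh-sulfur and glycine-tyrosine genes, lay within 0.02 of each other.

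The level in DNCB skin was also read as a part of the MSC level. Taking the mean of the 6 MSC libraries of each gene as 100%, DNCB skin held a median of 1.05% for glycine-tyrosine genes (0.253% to 2.08%), 2.48% for high-sulfur genes (0.794% to 6.78%) and 2.93% for ultrahigh-sulfur genes (0.958% to 19.8%). These medians rested on single libraries, at 1.70%, 3.99% and 5.10% without scMSC replicate 2 and 0.567%, 1.42% and 1.86% without DNCB replicate 3, in the same order of subfamilies. By family, the Krtap19 genes had the lowest median of 0.713%, while Krtap24-1 (6.78%), the Krtap28 genes (5.50%) and the Krtap10 genes (4.54%) were high. Krtap24-1 was at 0.144, 0.261 and 2.92 FPKM in the DNCB libraries, so its percentage rests on DNCB replicate 3. Both Krtap10 genes overlap the gene Tspear, Krtap10-10 on the same strand, so their values may share reads. Within chromosome 16 the median was 1.51% for the 8 high-sulfur and 1.05% for the 16 glycine-tyrosine genes. These differences were not tested.

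**Figure D4:**
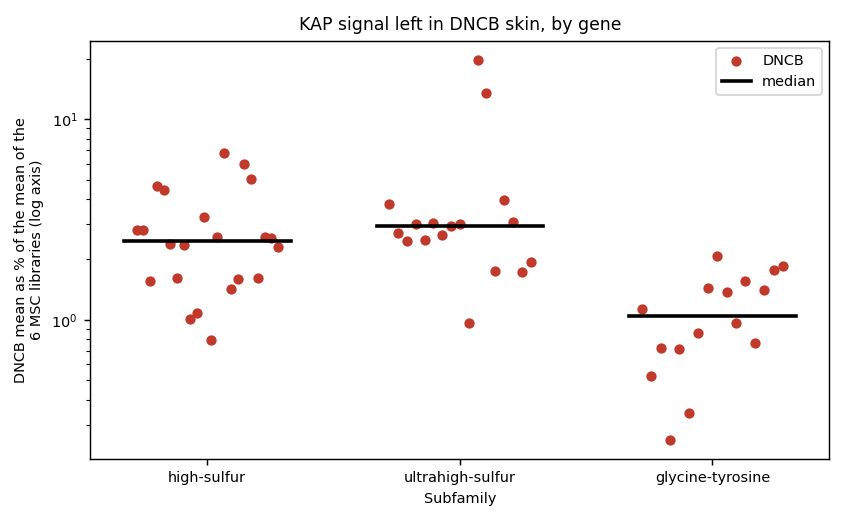
DNCB group mean of each KAP gene as a percentage of its mean over the 6 MSC libraries, on a log axis, by subfamily, with a black line for the median. All glycine-tyrosine genes lie at or below 2.08%, and the high- and ultrahigh-sulfur medians are 2.48% and 2.93%.

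Among the MSC libraries, most single genes kept their place in the profile. The share of the KAP sum held by a gene varied by a median of 1.44-fold between its highest and lowest of the 6 libraries. It varied by less than 2-fold for 45 of the 57 genes, among them 10 of the 16 glycine-tyrosine genes, and by 58.4-fold for Krtap5-2. The profile of scMSC replicate 3 differed from that of scMSC replicate 1 by family although their sums were alike. All 7 Krtap19 genes were higher in replicate 3 (1.04- to 5.30-fold), as were both Krtap10 genes, both Krtap16, both Krtap28 and both Krtap31 genes. All 8 Krtap4 genes (0.657- to 0.895-fold) and all 4 Krtap6 genes (0.563- to 0.867-fold) were lower. Other families were mixed, with 3 of 5 Krtap5, 1 of 3 Krtap9 and 1 of 3 Krtap3 genes higher. This sets 1 library beside 1 library and was not tested.

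Other hair shaft genes were read beside the KAP genes. Hair keratins pair as type I and type II chains to build the filaments of the shaft. Of 15 hair keratins tested, 5 were called higher in DNCB than in control, 15 in scMSC and 10 in scivMSC than in DNCB. Krt83, a type II hair keratin, was at 0.750, 1.18 and 0.0293 FPKM in control, 4.61, 1.83 and 10.6 in DNCB, 212, 679 and 300.4 in scMSC and 167, 49.9 and 112 in scivMSC. Its libraries had the order of Krtap8-1, apart from control replicate 2, which was below DNCB replicate 2. Krt86 was at 0.212, 1.63 and 0.0684 in control, 5.91, 1.53 and 10.8 in DNCB, 193, 629.9 and 229.8 in scMSC and 155, 52.6 and 79.3 in scivMSC. Its control and DNCB ranges overlapped. The scMSC against DNCB log2 fold change was 6.19 ± 1.10 (adjusted p = 0.00532) for Krt83 and 5.91 ± 1.16 (adjusted p = 0.00859) for Krt86. The 5 called in DNCB against control became 1 or 2 without control replicate 1, control replicate 3 or DNCB replicate 3 and 9 without control replicate 2 or DNCB replicate 2. The 10 of scivMSC against DNCB became 0 without DNCB replicate 1 or scivMSC replicate 1, 1 without DNCB replicate 2, 3 without scivMSC replicate 3 and 5 without DNCB replicate 3.

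The inner root sheath is the layer that moulds the growing shaft. RNA of its genes was found in every DNCB library and, among the control libraries, mostly in replicate 2. The 8 genes summed to 11.8, 331 and 4.42 FPKM in control and 440.4, 299 and 928 in DNCB, against 6792, 19263 and 9579 in scMSC and 6171, 2542 and 3481 in scivMSC. Control replicate 2, the control library with most KAP signal, was above DNCB replicate 2. In the call counts, 1 of 8 was higher in DNCB than in control, 4 in scMSC and 2 in scivMSC than in DNCB. Krt71, an inner root sheath keratin, was at 3.31, 116 and 0.486 in control, 157, 108 and 332 in DNCB, 2054, 5633 and 3096 in scMSC and 1991, 842 and 1062 in scivMSC, and its scMSC against DNCB log2 fold change of 4.23 ± 1.50 (adjusted p = 0.0963) was not called. Tchh, encoding trichohyalin of the sheath and medulla, was at 2.30, 32.6 and 1.26 in control, 83.8, 56.1 and 162 in DNCB, 1367, 3979 and 1455 in scMSC and 1159.9, 461 and 571 in scivMSC, with a scMSC against DNCB log2 fold change of 4.55 ± 1.18 (adjusted p = 0.0289), but without DNCB replicate 1, DNCB replicate 2, DNCB replicate 3 or scMSC replicate 2 the adjusted p was 0.0668 to 0.109. Leaving out single libraries moved the 3 counts to 0 to 8, 2 to 4 and 0 to 2, with 8 of 8 called in DNCB against control without control replicate 2.

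Among 8 shaft proteins that are not keratins, 6 were called higher in scMSC and 3 in scivMSC than in DNCB, and in DNCB against control 1 was called higher and 1 lower. The higher one was Tgm3, a transglutaminase of hair and epidermis, at a log2 fold change of 1.91 ± 0.36 (adjusted p = 0.00383), which was not called in scMSC (-0.69 ± 0.35, adjusted p = 0.252) or scivMSC (-1.19 ± 0.35, adjusted p = 0.0654) against DNCB. The lower one was Hephl1, at -2.11 (adjusted p = 0.00536). Both were named after their values were seen. S100a3, a calcium-binding protein of the hair cuticle, was at 0.997, 6.37 and 0.133 FPKM in control, 5.87, 3.92 and 18.4 in DNCB, 182, 508 and 339.9 in scMSC and 139, 41.0 and 106 in scivMSC. The control and DNCB ranges overlapped. Tchhl1, encoding a trichohyalin-like protein, was at 0.480, 2.61 and 0.156 in control, 5.30, 1.88 and 9.71 in DNCB, 125, 501 and 83.4 in scMSC and 106, 44.4 and 57.8 in scivMSC. No MSC library of either gene overlapped a DNCB library. The 6 of scMSC became 3 without DNCB replicate 1, the 3 of scivMSC became 1 without any one DNCB library, scivMSC replicate 1 or scivMSC replicate 3, and the 2 of DNCB against control became 6 without control replicate 2.

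The listed transcription factors of the shaft and follicle had a median log2 fold change of 2.84 in scMSC and 1.83 in scivMSC against DNCB. Over the tested KAP genes it was 6.42 and 4.39, and the difference was not tested. Not all of the listed factors are particular to the shaft. Of 11 listed, 11 were called higher in scMSC and 6 in scivMSC than in DNCB, and in DNCB against control 0 were called higher and 1, Gata3, lower. Hoxc13, a homeodomain factor of the hair matrix and shaft, was at 5.54, 9.75 and 4.56 FPKM in control, 6.15, 4.38 and 6.33 in DNCB, 29.6, 67.8 and 63.4 in scMSC and 30.7, 17.9 and 32.5 in scivMSC. Control and DNCB libraries overlapped for Hoxc13, whose log2 fold change there was -0.44 ± 0.39 (adjusted p = 0.466), and no MSC library overlapped them. It was 3.29 ± 0.43 (adjusted p = 0.00199) for scMSC and 2.29 ± 0.41 (adjusted p = 0.0101) for scivMSC against DNCB. Lef1, a Wnt pathway factor, was at 0.480, 1.43 and 0.539 in control, 0.505, 0.495 and 1.11 in DNCB, 4.03, 7.97 and 11.9 in scMSC and 3.89, 2.91 and 5.50 in scivMSC, highest in scMSC replicate 3, whereas KAP genes were highest in replicate 2. Foxn1, a factor needed for shaft keratinization, was at 2.18, 3.08 and 3.40 in control, 4.81, 5.30 and 6.19 in DNCB, 13.1, 28.8 and 16.7 in scMSC and 12.9, 9.03 and 7.88 in scivMSC, and was called higher in scMSC than in DNCB at 1.89 ± 0.31 (adjusted p = 0.00397). Dlx3 and Ovol1, the most abundant of the list, had scMSC against DNCB log2 fold changes of 3.37 ± 0.50 (adjusted p = 0.00274) and 1.07 ± 0.28 (adjusted p = 0.0308), and for Ovol1 without DNCB replicate 1, DNCB replicate 2, DNCB replicate 3, scMSC replicate 2 or scMSC replicate 3 the adjusted p was 0.0533 to 0.127. The 6 called in scivMSC became 2 without DNCB replicate 1, DNCB replicate 2 or scivMSC replicate 1.

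**Figure D5:**
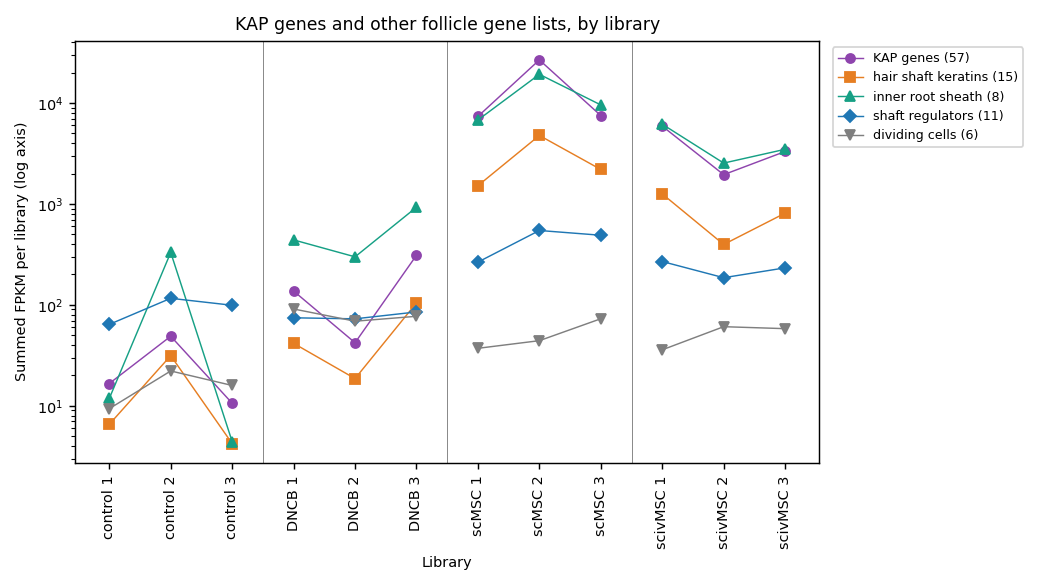
FPKM summed over the KAP genes and 4 other gene lists in each library (log axis, points joined within a group). KAP genes, hair shaft keratins and inner root sheath genes rise together in the MSC libraries, while shaft regulators rise less. The dividing-cell genes run from 9.36 to 91.1 and have their highest mean in the DNCB group.

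Genes of other cell types also moved between groups. Of 6 dividing-cell genes, 6 were called higher in DNCB than in control and 0 were called between MSC and DNCB groups, with sums of 9.36 to 22.1 FPKM in control, 68.9 to 91.1 in DNCB and 35.9 to 72.9 over both MSC groups. The neutrophil list of 6 summed to 118 to 205 in control, 2452 to 3423 in DNCB and 14.9 to 174 in the MSC libraries, with all 6 called lower in each MSC group than in DNCB. The share of all tested genes called lower in these comparisons is not given here. Their part in the KAP difference was not tested.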

How the data were processed

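Total RNA from dorsal skin was sequenced in 12 libraries, 3 per group per the labels. For each library and 36400 genes the authors deposited FPKM, a level scaled by length and depth, and estimated counts in whole numbers, left unscaled between libraries. The submitters' processing notes name Bowtie 0.12.2, HISAT2 2.0, StringTie 1.3.0 and the build mm8, with no roles given, while the coordinates in the file equal GRCm38 positions for all 57 members. The strand setting of the counting is not given in the sources used here. Member genes were those with a symbol of Krtap and a number, and subfamilies followed the family number. The members and gene lists were chosen with earlier results of these data known.

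Genes averaging 0.1 FPKM or more (21890) entered the test of the deposited counts by edgeR 4.0.16 (R 4.3.3), using TMM, the quasi-likelihood test and 1 model of the 4 groups. The Benjamini-Hochberg adjustment ran over all genes tested, and standard errors were derived from the F statistic. The common biological coefficient of variation was 0.420, and totals ran from 63877153 to 75134001 estimated counts per library. Calls required an adjusted p below 0.05 and a change beyond 1 on the log2 scale. Named genes were the 5 most abundant of each subfamily, up to 2 called genes per direction and comparison with the largest fold change and a mean of at least 1 FPKM, any called gene opposite to most others, the 2 most abundant of each hair list, Hoxc13, Foxn1 and Lef1. Alternatives were DESeq2 1.42.0, limma 3.58.1 on log2(FPKM + 0.1) or log2(FPKM + 1), other scaling, filters and thresholds, a replicate block and leaving out each library. Steps were tested on simulated data. Promoters were RefSeq's (GRCm38.p6). Python 3.11.15, pandas 2.3.3, numpy 2.4.6 and matplotlib 3.10.9 made tables and figures.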

Additional observations from a re-analysis of the deposited data

How the results depend on the processing

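The log2 fold changes of the 21 KAP genes described by value in every library kept their sign under every alternative run. That of Krtap5-2 in scMSC against DNCB did as well. For Krtap5-2 and the hair list genes the alternatives were added after seeing the data. In DNCB against control the sign of some hair list genes is uncertain. Dlx3 (-0.19 ± 0.46), Lef1 (-0.42 ± 0.53) and Krt35 (0.35 ± 1.19) had an SE larger than their log2 fold change there. In scMSC against DNCB (47 to 55 members called when each library was left out, 48 to 55 under other settings), scMSC against control (55 to 56 in both), scivMSC against control (47 to 56 and 52 to 56) and scivMSC against scMSC (0 throughout), the count of called members stayed within 1.5 times the reported one. DNCB against control did not. Its 16 members became 26 with library size alone, 30 with limma on log2(FPKM + 0.1), 6 with limma on log2(FPKM + 1), 35 with DESeq2, 7 with the 6 libraries fitted alone and 8 with the replicate number as a block, and 3 to 28 when each library was left out. The 45 of scivMSC against DNCB became 21 with the replicate block and 13 to 46 when each library was left out. The cause of these moves was not tested. Same-numbered libraries of different groups correlated at -0.185 to 0.133 in their deviations, beside -0.148 to 0.148 for libraries with different numbers. These values show no pairing by number, but with 3 libraries per group they cannot exclude it. Assignment of subfamilies by protein composition was not run, since no protein sequences were used here. Low counts limit control and DNCB skin, where 17 and 5 members were at the floor, and 3 libraries per group limit every comparison.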

Other observations

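Other gene lists were read in the same libraries. The 6 melanocyte genes summed to 10.1 to 30.05 FPKM in control and 74.4 to 93.7 in DNCB. In the MSC groups their sums were 125 to 331 in scMSC and 114 to 169 in scivMSC. Of the 6, 4 were called higher in DNCB than in control, 2 in scMSC and 1 in scivMSC than in DNCB. Pigment was not measured. The highest scMSC library for this list was replicate 3, whereas KAP genes were highest in replicate 2. The 5 sebaceous gland genes, of lipid synthesis, went the other way in DNCB, with 4 called lower than in control and 4 called higher in each MSC group than in DNCB. Their sums were 587 to 734 in control, 122 to 147 in DNCB and 371 to 838 over both MSC groups, so that MSC and control ranges overlapped.

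Of 8 genes of follicle growth and rest, 3 (Fgf18, Bmp4 and Bmp6) were called lower in DNCB than in control and 5 were called higher in scMSC and 1 in scivMSC than in DNCB. Skeletal muscle genes (5) were lower in DNCB, scMSC and scivMSC than in control for 4 genes each, and 0 were called between the MSC groups and DNCB. Of 5 adipocyte genes, 2 were called lower in DNCB than in control. The epidermal list had 2 of 5 called higher and 1 lower in DNCB than in control, and 1 higher and 2 lower in each MSC group than in DNCB. Of 5 fibroblast genes, 3 were called higher in DNCB than in control and 3 were called lower in scMSC than in DNCB. For comparisons with an MSC group, the share of all tested genes called lower is not given here. Values of these lists are given without explanation, and their part in the KAP differences was not tested.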
